A study of Mus musculus with 6 samples.

Results

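Bone morphogenetic proteins (BMPs) made by liver endothelial cells (ECs) and the genes that move, store and sense iron were followed in sorted liver ECs of young and aged mice. The 10 genes were chosen by name: the BMP ligands Bmp2, Bmp4 and Bmp6, the extracellular BMP regulator Bmper, hepcidin (Hamp), the BMP co-receptor hemojuvelin (Hfe2), the iron exporter ferroportin (Slc40a1), the transferrin receptor (Tfrc) and the ferritin heavy and light chains (Fth1 and Ftl1). All 10 are among the 24421 gene symbols with counts, and 9 of them passed the filter on low counts that left 14612 genes, while Hfe2 did not. Each library came from 50000 CD31+CD45- cells of the liver of wild-type C57BL/6J mice, at 10 weeks of age in 3 samples (young) and at 127, 131 and 136 weeks in the others (aged, n = 3). No treatment or transgene is given for either age, and the sources speak of independent samples without saying whether a library is 1 animal or a pool, so that n counts samples. The sort keeps every vessel type of the liver together, so that fewer cells of a type and less RNA per cell cannot be told apart in any result here.

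Liver sinusoidal ECs are known as the main source of BMP2 and BMP6 in the liver. Both ligands act on hepatocytes through BMP receptors, with hemojuvelin as co-receptor, and SMAD proteins then switch on Hamp. The hepcidin peptide binds ferroportin and removes it from the cell surface, which lowers the release of iron into the blood. Inside cells, iron regulatory proteins bind stem-loops in messenger RNA when iron is scarce. Binding in the 5′ untranslated region (UTR) blocks translation, and binding in the 3′ UTR slows decay of the transcript.

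Such stem-loops are shown for the members because they tie the exporter, the ferritins and the uptake receptor to iron itself. A pattern was searched in the longest coding transcript of each gene, from GENCODE for mm9. It held a 6-base loop CAGTGN, where N was A, C or T, and 5 paired bases on either side, G-T pairs included. An unpaired C came before the stem. The pattern was found in 4 of the 10 members, against 187 of 22611 genes in all (0.827%). Those 187 include matches anywhere in the transcript, with a 5′ UTR site in 15 genes and a 3′ UTR site in 82. Because the members were chosen by name for their known part in BMP signalling or iron handling, the shares are a description and not a test. Each site is printed as 30 bases, 5′ to 3′, with the loop in capitals.
Slc40a1, 5′ UTR: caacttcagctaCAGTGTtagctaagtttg
Fth1, 5′ UTR: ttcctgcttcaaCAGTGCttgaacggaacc
Ftl1, 5′ UTR: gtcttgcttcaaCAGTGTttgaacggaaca
Tfrc, 3′ UTR, site 1: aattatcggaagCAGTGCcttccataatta
Tfrc, 3′ UTR, site 2: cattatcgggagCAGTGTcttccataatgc
Tfrc, 3′ UTR, site 3: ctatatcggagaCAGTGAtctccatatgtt
Tfrc, 3′ UTR, site 4: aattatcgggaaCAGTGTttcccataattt
The Slc40a1 site starts at base 108 of a transcript of 3380 bases, the Fth1 site at base 36 of 866 and the Ftl1 site at base 84 of 968. The Tfrc sites start at bases 3321, 3700, 3765 and 3812 of 4890. On mm9, Slc40a1 lies at chr1:45964915-45982439 (minus strand), Fth1 at chr19:10057193-10059582 (plus), Ftl1 at chr7:52713314-52715254 (minus) and Tfrc at chr16:32609006-32632880 (plus). The pattern was not matched in Bmp2, Bmp4, Bmp6, Bmper, Hamp or Hfe2. A match is a description of letters and shows nothing of binding.

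The 250 bases before the start of Hamp are shown beside those of Hamp2, its neighbour and near copy, because the pair differ at a letter run of the kind bound by BMP SMADs. Both windows come from RefSeq on GRCm38.p6, which is not the build of the counts, with Hamp at chr7:30944030-30944279 and Hamp2 at chr7:30924182-30924431, both on the minus strand. Capitals mark GGCGCC, a motif of BMP-responsive elements, and TTCNNNGAA, a motif of STAT factors, searched on both strands.
Hamp: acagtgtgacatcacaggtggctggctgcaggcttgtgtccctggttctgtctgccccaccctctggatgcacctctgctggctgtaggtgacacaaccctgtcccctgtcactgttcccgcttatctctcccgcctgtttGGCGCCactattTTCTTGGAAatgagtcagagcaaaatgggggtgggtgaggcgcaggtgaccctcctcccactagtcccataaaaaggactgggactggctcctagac
Hamp2: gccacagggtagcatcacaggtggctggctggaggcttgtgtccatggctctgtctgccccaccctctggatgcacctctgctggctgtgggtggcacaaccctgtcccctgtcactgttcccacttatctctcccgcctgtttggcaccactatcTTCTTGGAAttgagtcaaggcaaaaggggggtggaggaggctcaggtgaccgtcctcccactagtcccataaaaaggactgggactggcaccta
In Hamp, GGCGCC spanned 109 to 104 bases before the start and TTCTTGGAA spanned 97 to 89. Hamp2 held the second of these, at 94 to 86 bases before its start, and not the first, although 227 of 247 aligned bases of the windows were identical (91.9%). Of the other members, Tfrc also held GGCGCC, at 89 to 84 bases before a start. Among 32851 RefSeq windows of this length, 9.586% held GGCGCC and 7.02% held TTCNNNGAA. The motif TGANNNNGC was held by 35.2% of windows and was found at 2 places before Bmp6 and not before Hamp. RefSeq windows were matched for 7 of the 10 members, and Bmp2, Hfe2 and Slc40a1 had none.

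Levels between genes are compared as FPKM, fragments scaled to transcript length and to library size, which the authors scaled between samples. Ferritin stood far above the other members, with Ftl1 the 5th and Fth1 the 31st highest gene by mean FPKM in young ECs. Bmp2 came next at rank 197, followed by Slc40a1 (1088), Bmp6 (1282), Bmp4 (1900) and Bmper (7894). Hamp, Tfrc and Hfe2 were low in young ECs, at ranks 10468, 10812 and 14679. The levels of Slc40a1 and Bmp6 overlapped in young ECs, and so did those of Bmp6 and Bmp4 and those of Hamp and Tfrc. Bmp2 was separated from its neighbours on both sides.

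**Figure D1:**
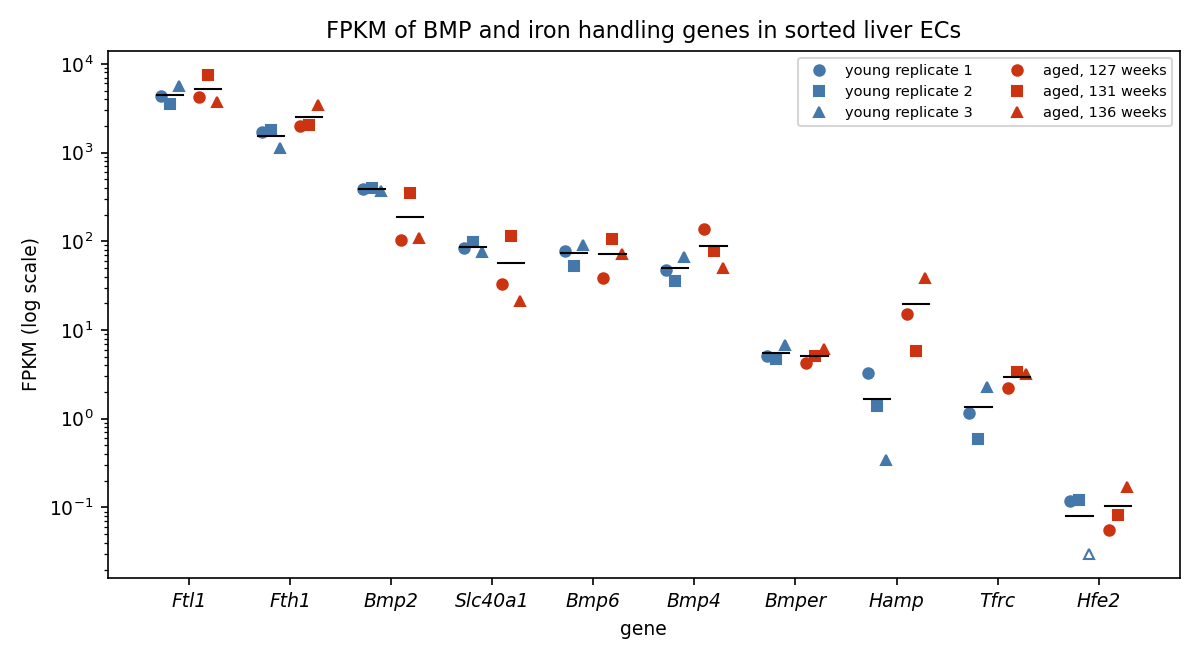
FPKM (log scale) of the 10 genes in each of 6 libraries of sorted liver ECs, young in blue and aged in red, with a black line at each group mean. The open symbol for Hfe2 stands for a value of 0 drawn at the bottom of the axis; Bmp2 in the 127- and 136-week samples and Hamp in all aged samples lie apart from the young values.

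Aged and young ECs were then compared gene by gene with the quasi-likelihood test of edgeR, over 14612 genes. Of the 9 members tested, 0 passed an adjusted p of 0.05, and 0.0% of all genes passed it. At an unadjusted p below 0.05 there were 3 members, Hamp, Tfrc and Fth1, all higher in aged ECs, beside 12.6% of all genes in either direction and 8.32% in the higher one. DESeq2 called 1 member, Hamp, and 630 of all genes (4.31%). In counts scaled to library size (CPM), 3 members had groups that did not overlap, beside 17.9% of all genes. Hamp and Fth1 were higher in every aged sample than in any young one, as were 9.62% of all genes, and Bmp2 was lower in every one, as were 8.33%.

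**Figure D2:**
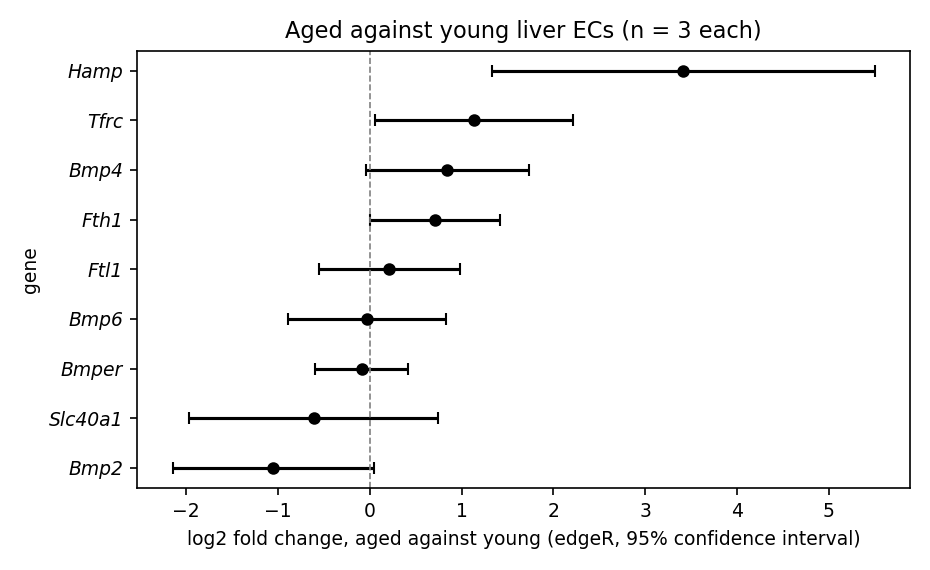
Log2 fold change of the 9 tested genes in aged against young liver ECs, from edgeR on counts, with 95% confidence intervals (n = 3 samples each). The intervals of Hamp, Tfrc and Fth1 lie above 0, and the other 6 include 0.

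Bmp2, the BMP ligand with the highest level, was lower in aged ECs in proportions that differed between samples. Its FPKM was 392, 403 and 371 in the young samples and 104, 346 and 108 in the 127-, 131- and 136-week samples. The 131-week sample thus stood just below the young range, at 88.9% of the young mean, and the others stood at 26.7% and 27.9%. The means were 389 ± 16.3 and 186 ± 138 FPKM (SD, n = 3 each), which gave a log2 fold change of -1.05 (SE 0.47, 95% confidence interval -2.15 to 0.045), with an edgeR adjusted p of 0.413. It was -1.87 without the 131-week sample (adjusted p = 0.0565), -0.76 without the 127-week sample (0.574) and -0.78 without the 136-week sample (0.775). Bmp2 lies at chr2:133377895-133388621 (mm9, plus strand).

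Taken as a sum, the markers of sinusoidal ECs, like Bmp2, were lowest in the 127- and 136-week samples. Their 10 genes summed to 20443 to 21433 CPM in young ECs, and to 7936, 13824 and 7089 CPM in the 127-, 131- and 136-week samples. Of these 10 markers, 9 had a lower fitted level in aged ECs, and none was at 0. In 8 the groups did not overlap, all lower in aged ECs, beside 8.33% of all genes in that direction. Stab2, a scavenger receptor of sinusoidal ECs, ranged from 2902 to 3199 CPM in young and from 504 to 1760 CPM in aged ECs. Lyve1, the marker with a higher fitted level, did not share the order of the sum. It was 391, 537 and 671 CPM in young and 661, 223 and 1506 CPM in the 127-, 131- and 136-week samples. The 10 general endothelial markers summed to 14496 to 15498 CPM in young and to 11900, 13501 and 10623 CPM in the 127-, 131- and 136-week samples. Of these 10, 6 were lower, and 3 of them (Kdr, Eng and Tek) had no overlap, beside 8.33% of all genes in that direction. Pecam1, which encodes the CD31 used for the sort, averaged 1444 ± 126 CPM in young and 1459 ± 153 CPM in aged ECs (SD, n = 3 each). The part of the sinusoidal and endothelial markers in the level of Bmp2 was not tested.

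Bmp6, the ligand that rises in the liver with iron load, had overlapping groups. Its FPKM was 77.8, 52.5 and 91.7 in young and 39.0, 106 and 71.1 in the 127-, 131- and 136-week samples. The 131-week sample was the highest of all samples and the 127-week sample the lowest. In the fit its log2 fold change was -0.032 (SE 0.37, 95% confidence interval -0.90 to 0.83), with an edgeR adjusted p of 0.985. Changes in either direction within this interval are not excluded. Bmp6 lies at chr13:38436995-38592183 (mm9, plus strand).

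The balance of both ligands was then taken within each sample. The ratio of Bmp2 to Bmp6 in FPKM was 5.04, 7.68 and 4.05 in young and 2.66, 3.28 and 1.52 in the 127-, 131- and 136-week samples, without overlap. On the log2 scale Bmp6 relative to Bmp2 was higher by 1.19 in aged ECs, or 2.27-fold. A two-sided exact permutation test gave p = 0.1, the smallest that 3 samples against 3 allow, and 0.15 after adjustment over 3 such tests.

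Bmp4, a ligand of the same receptors that is made by many vessels, had higher values in part of the aged samples. Its FPKM was 47.3, 35.5 and 65.9 in young and 138, 77.7 and 50.3 in the 127-, 131- and 136-week samples. The 127- and 131-week samples lay above every young value and the 136-week sample within the young range. Aged against young, the log2 fold change was 0.85 (SE 0.38, 95% confidence interval -0.039 to 1.73; edgeR adjusted p = 0.414). Per length, Bmp2 exceeded Bmp4 by 5.64- to 11.3-fold in young ECs, and the ratio was 0.755, 4.45 and 2.15 in the 127-, 131- and 136-week samples. Bmp4 was therefore above Bmp2 in the 127-week sample. It lies at chr14:47003195-47010344 (mm9, minus strand).

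Bmper encodes a secreted protein that binds BMPs and can dampen or aid their signal. It was 5.06, 4.75 and 6.71 FPKM in young and 4.23, 5.12 and 6.08 FPKM in aged ECs. The groups overlapped and the log2 fold change was -0.088 (SE 0.22, 95% confidence interval -0.59 to 0.42; edgeR adjusted p = 0.922). It lies at chr9:23027520-23289646 (mm9, plus strand).

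Hamp was higher in every aged sample than in any young one, although it was a low gene in this sort. Its counts were 18, 6 and 4 in young and 85, 29 and 183 in the 127-, 131- and 136-week samples. On unadjusted total counts, 3 counts correspond to 0.0948 to 0.130 CPM. The CPM values given for genes use library sizes adjusted by TMM, so this floor is approximate for them. In FPKM Hamp was 3.28, 1.40 and 0.345 in young, and 15.1, 5.82 and 38.1 in aged ECs. The means were 0.356 ± 0.282 and 3.83 ± 3.25 CPM (SD, n = 3 each), a ratio of 10.8. Its log2 fold change was 3.42 (SE 0.89, 95% confidence interval 1.33 to 5.50). The edgeR adjusted p was 0.250 and that of DESeq2 0.00471, and the adjusted p over 15 alternatives, DESeq2 among them, ran from 0.00471 to 0.625. Without the 136-week sample the log2 fold change was 2.50, with an adjusted p of 0.515, and without the 131-week sample it was 3.85, with an adjusted p of 0.0919. The study lists Hamp among the genes it called on these samples, so its choice is not independent evidence of a direction.

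Hepatocytes are the known main source of Hamp, and their markers are given beside it. The 18 hepatocyte markers summed to 188 to 271 CPM in young and 133 to 163 CPM in aged ECs. Of the 18, 17 had a lower fitted level in aged ECs, and none was at 0. In 8 of the 17 the groups did not overlap, beside 8.33% of all genes in that direction. Alb was 40.3 to 74.7 CPM in young and 36.6 to 45.7 CPM in aged ECs. Hamp amounted to 1.13%, 0.673% and 0.169% of the Alb CPM in young, and 6.92%, 2.47% and 20.3% in the 127-, 131- and 136-week samples. Relative to the mean of the hepatocyte markers, Hamp was higher by 2.91 on the log2 scale, or 7.52-fold (two-sided exact permutation test, p = 0.1, adjusted 0.15). This value depends on the small number added, since Hamp averaged 0.356 CPM in young ECs. It was 4.38 in log2(FPKM + 0.1), 2.37 in log2(CPM + 1), and 2.24 without the 136-week sample. The groups of this ratio did not overlap, and the part of hepatocytes in the level of Hamp was not tested.

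Sums of immune cell markers had the same order as Hamp over the aged samples. The 13 Kupffer cell and macrophage markers summed to 101 to 117 CPM in young and 143, 23.9 and 236 CPM in the 127-, 131- and 136-week samples. Of the 13, 8 had a higher and 5 a lower fitted level in aged ECs, and all had overlapping groups. The 8 pan-leukocyte markers summed to 101 to 106 CPM in young and 117, 101 and 363 CPM in aged ECs. Ptprc, which encodes the CD45 excluded by the sort, was 7.57, 1.28 and 25.6 CPM in the 127-, 131- and 136-week samples and 1.17 to 1.70 CPM in young ones. The Kupffer cell marker Clec4f ranged from 7.85 to 19.9 CPM in young ECs. It was 33.0, 2.18 and 32.8 CPM in the 127-, 131- and 136-week samples. Like Hamp it was lowest of these at 131 weeks, but its other 2 values were nearly equal. Lrat, of stellate cells, was 4.51 to 23.6 CPM in young and 1.67 to 4.18 CPM in aged ECs. It was the only 1 of 12 stellate and mural markers with groups that did not overlap. Of the 12, 5 had a higher and 7 a lower fitted level, and their sums overlapped (459 to 1002 CPM in young, 682 to 1016 CPM in aged ECs). The part of these cells in the level of Hamp was not tested.

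Hamp and Hamp2 are 18189 bases apart on mm9, at chr7:31727390-31729036 and chr7:31707391-31709200, both on the minus strand. Their transcripts are 94.39% identical, and 4.088% of the 75-base stretches of Hamp occurred letter for letter elsewhere in the genome. Stretches across an exon junction could not match the genomic copy of Hamp2, and mismatches were not allowed. This share may therefore understate the sharing of reads. Hamp2 had 9, 0 and 0 counts in young and 7, 1 and 5 in aged ECs, and was not tested. The higher counts of aged ECs were therefore those of reads that the authors assigned to Hamp, and the share exchanged between the copies is uncertain.

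**Figure D3:**
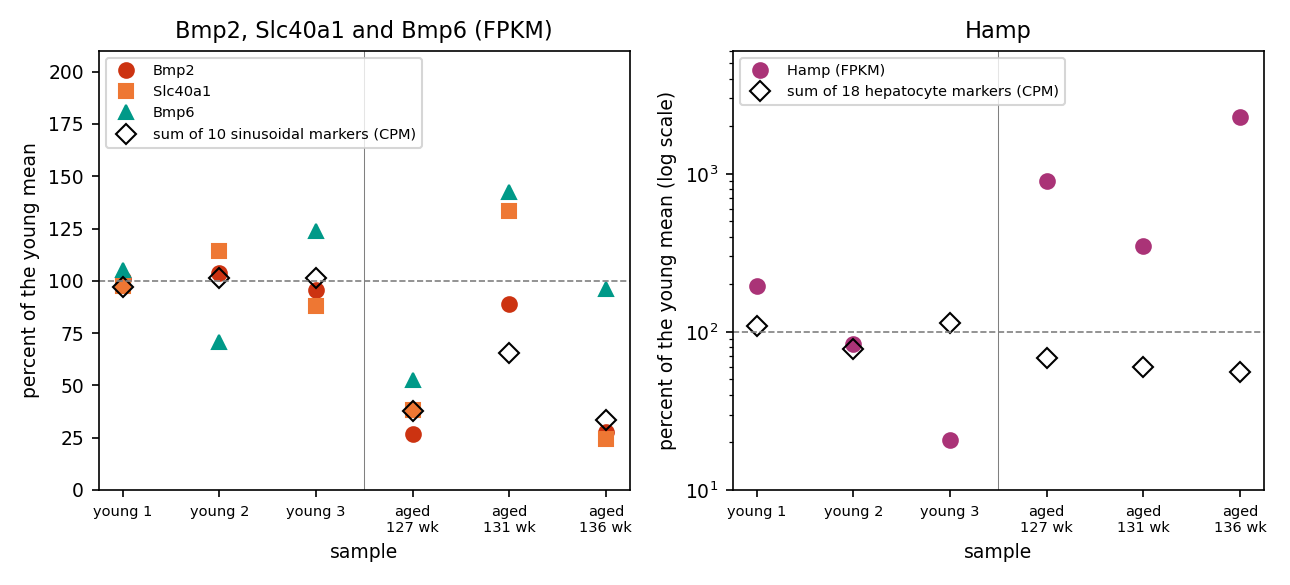
Levels in each library as a percentage of the young mean (dashed line at 100). Left, FPKM of Bmp2, Slc40a1 and Bmp6 beside the CPM sum of 10 sinusoidal markers. Bmp2, Slc40a1 and the marker sum are low in the 127- and 136-week samples. Right, on a log scale, FPKM of Hamp beside the CPM sum of 18 hepatocyte markers, which lie on opposite sides of 100 in each aged sample.

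Hfe2, the co-receptor of hepatocytes and muscle, was at the limit of detection. It had 6, 5 and 0 counts in young and 3, 4 and 8 counts in aged ECs, with FPKM values of at most 0.172, so that no difference could be detected at this depth. It lies at chr3:96329108-96333139 (mm9, plus strand).

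Slc40a1, the only known cellular iron exporter, split the aged samples as Bmp2 did. Its FPKM was 84.4, 99.1 and 76.4 in young and 32.9, 116 and 21.1 in the 127-, 131- and 136-week samples. The 131-week sample was the highest of all 6 and the other aged samples were the lowest. Over all samples, the log2 fold change was -0.61 (SE 0.58, 95% confidence interval -1.97 to 0.75; edgeR adjusted p = 0.730). Without the 131-week sample it was -1.69, with an adjusted p of 0.0636, while it was -0.33 without the 127-week sample and -0.22 without the 136-week sample. The low samples were those with the lowest sums of sinusoidal markers given above, and the part of these markers was not tested here either.

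Tfrc, which takes up transferrin-bound iron, was higher on average in aged ECs with a slight overlap. Its FPKM was 1.15, 0.591 and 2.29 in young and 2.21, 3.39 and 3.21 in the 127-, 131- and 136-week samples. Young replicate 3 exceeded the 127-week sample. Its log2 fold change was 1.13 (SE 0.46, 95% confidence interval 0.052 to 2.21), with an unadjusted p of 0.0422 and an edgeR adjusted p of 0.378.

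This pair of samples also differed from the rest in the libraries. Ribosomal RNA reads assigned to Lars2 and Rn45s were 0.960% of counts in the 127-week library and 1.29% in that of young replicate 3, and 4.68% to 5.53% in the other 4. Within the pair with a low share, Tfrc differed by -0.022 in log2(CPM + 0.5), aged minus young, and among the other 4 by 1.86. The pair is 1 sample against 1, so its differences have no replicate spread. Bmp6 likewise differed by -1.22 in the pair and by 0.45 in the others, Bmper by -0.64 and 0.19, and Ftl1 by -0.42 and 0.45. For the remaining tested members the differences, pair first, were -1.82 and -1.03 for Bmp2, 1.07 and 0.61 for Bmp4, 2.45 and 1.92 for Hamp, -1.21 and -0.88 for Slc40a1, and 0.87 and 0.61 for Fth1. Hamp relative to hepatocyte markers was higher by 3.01 and 2.86, and Bmp6 relative to Bmp2 by 0.60 and 1.48.

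Fth1, the ferritin chain that oxidises iron for storage, was higher in each aged sample. Its FPKM was 1714, 1780 and 1113 in young and 2015, 2046 and 3462 in the 127-, 131- and 136-week samples. The lowest aged value lay just above the highest young one, and the 136-week sample stood well above the rest. The means were 1535 ± 368 and 2507 ± 826 FPKM (SD, n = 3 each). Their log2 fold change was 0.71 (SE 0.30, 95% confidence interval 0.0057 to 1.42), with an unadjusted p of 0.0486 and an edgeR adjusted p of 0.393. Without the 136-week sample, which had the highest sums of macrophage and leukocyte markers, it was 0.40, and the part of those cells was not tested.

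Ftl1, the light chain that aids the growth of the iron core, had overlapping groups. It was 4301, 3526 and 5648 FPKM in young and 4180, 7536 and 3730 FPKM in the 127-, 131- and 136-week samples. The log2 fold change was 0.21 (SE 0.33, 95% confidence interval -0.56 to 0.98; edgeR adjusted p = 0.857). Of its 75-base stretches, 67.45% occurred elsewhere in the genome, against 4.167% for Fth1, so its level depends on how reads with several matches were treated and is uncertain.

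Storage was also set against uptake in the same sample. The ratio of Fth1 to Tfrc in FPKM was 1490, 3010 and 486 in young and 913, 604 and 1077 in the 127-, 131- and 136-week samples. The groups overlapped. On the log2 scale Fth1 relative to Tfrc differed by -0.54, aged minus young, with p = 0.5 both before and after adjustment (two-sided exact permutation test). It was higher by 0.91 in the pair with few ribosomal reads and lower among the other 4, at -1.26.

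The other genes of the BMP family, its pathway and hepcidin control were described from 5 lists holding 64 genes, of which 54 were tested. The lists include activin and IL-6 signalling genes, so their totals are not of BMP signalling alone. None was called by edgeR, 12 had an unadjusted p below 0.05 and were higher, and 2 were lower, while DESeq2 called 6. Over all genes these shares were 8.32% higher and 4.32% lower, and 4.31% by DESeq2. In 17 of the 54 (31.5%) the groups did not overlap, beside 17.9% of all genes, with 11 higher and 6 lower. The median log2 fold change was 0.31, against 0.0098 over all genes tested.

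Among 9 other ligands tested, Gdf15, a stress-induced member of the family, had the smallest p. Its FPKM was 2.37, 1.89 and 2.11 in young and 21.1, 11.8 and 81.5 in the 127-, 131- and 136-week samples, with no overlap. The log2 fold change was 4.13 (SE 0.74; edgeR adjusted p = 0.193). Gdf2 encodes BMP9, a ligand made by liver stellate cells, and was 3.21, 2.32 and 0.257 FPKM in young against 0.193, 0.0542 and 0.323 FPKM in aged ECs. Its groups overlapped and its log2 fold change was -3.34 (edgeR adjusted p = 0.277). Young replicate 3, the low one, also had the lowest sum of stellate and mural markers, 459 CPM against 682 to 1016 CPM in the other samples, and their part in the level of Gdf2 was not tested. Inhba, a subunit of activin A, was 0.189 to 1.38 FPKM in young and 0.622 to 12.8 FPKM in aged ECs, with a log2 fold change of 3.07 (edgeR adjusted p = 0.339).

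Of 15 antagonists and modulators tested, 13 had a higher fitted level in aged ECs, where 51.1% of all genes did. The groups did not overlap in 3 (20%), near the 17.9% of all genes. Those 3 were Sost, Chrd and Fstl3, all secreted binders of ligands or their co-receptors, with log2 fold changes of 2.23, 3.34 and 2.57 and edgeR adjusted p-values of 0.353 to 0.379. Their levels were low, at most 2.35 FPKM for Sost, 0.242 for Chrd and 0.469 for Fstl3.

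Of 11 receptors and SMADs tested, 6 (54.5%) had groups that did not overlap, 3 higher and 3 lower, beside 17.9% of all genes. Bmpr1a, a type I BMP receptor, was 0.809, 0.412 and 0.401 FPKM in young and 1.08, 1.34 and 0.880 FPKM in aged ECs, a log2 fold change of 1.01 (edgeR adjusted p = 0.340). Acvrl1, the ALK1 receptor for BMP9, was 29.0 to 37.8 FPKM in young and 40.6 to 93.1 FPKM in aged ECs, a log2 fold change of 0.78 (edgeR adjusted p = 0.398). Bmpr2, the type II receptor, was 13.5 to 13.8 FPKM in young and 11.5 to 12.9 FPKM in aged ECs, a log2 fold change of -0.15 (edgeR adjusted p = 0.693). Acvr1, the type I receptor ALK2, was 23.4 to 23.6 FPKM in young and 21.9 to 25.6 FPKM in aged ECs, with overlap. Smad5, a signal carrier of the pathway, was 7.60 to 8.56 FPKM in young and 8.50 to 12.5 FPKM in aged ECs.

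The 8 target genes of BMP signalling did not move as 1 group. Hey1, a transcription factor also switched on by Notch, was 5.10 to 7.14 FPKM in young and 17.4, 15.2 and 42.1 FPKM in the 127-, 131- and 136-week samples. Its log2 fold change was 1.98 (SE 0.41; edgeR adjusted p = 0.203). Atoh8, a transcription factor linked to hepcidin control, was 6.74 to 8.16 FPKM in young and 9.13 to 11.6 FPKM in aged ECs. By contrast Id1, the standard readout of BMP signalling, overlapped, with a log2 fold change of -0.19 (edgeR adjusted p = 0.756), and the inhibitory SMADs Smad6 and Smad7 had 0.18 and 0.23 (0.741 and 0.684). Id2 had 0.56 (edgeR adjusted p = 0.522).

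Among 11 hepcidin regulators, 5 (45.5%) had groups that did not overlap, beside 17.9% of all genes. Of these 5, 2 were higher (Il6 and Socs3) and 3 lower (Tfr2, Hfe and Il6st). Il6, the cytokine that raises Hamp through STAT3, was 7.46, 4.70 and 1.14 FPKM in young and 10.4, 28.2 and 62.5 FPKM in the 127-, 131- and 136-week samples. Its log2 fold change was 2.93 (SE 0.81; edgeR adjusted p = 0.256). Socs3, a feedback inhibitor and target of STAT3, was 332 to 392 FPKM in young and 486 to 1023 FPKM in aged ECs, a log2 fold change of 1.02 (SE 0.29; edgeR adjusted p = 0.256). Tfr2, an iron sensor of hepatocytes, was at most 0.607 FPKM, with a log2 fold change of -1.72 (edgeR adjusted p = 0.365) beside the lower hepatocyte markers given above. Hfe, an iron sensing partner of the transferrin receptors, was 190 to 204 FPKM in young and 166, 173 and 100 FPKM in aged ECs, a log2 fold change of -0.41 (edgeR adjusted p = 0.501). Il6st, the signalling chain of the IL-6 receptor, was 634 to 791 FPKM in young and 604, 560 and 341 FPKM in aged ECs, a log2 fold change of -0.47 (edgeR adjusted p = 0.510). Hfe and Il6st were named after their values were seen. The 136-week sample, which had the highest leukocyte sum, was also the highest for Gdf15, Inhba, Hey1, Acvrl1, Il6 and Socs3, and the part of leukocytes in these levels was not tested.

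**Figure D4:**
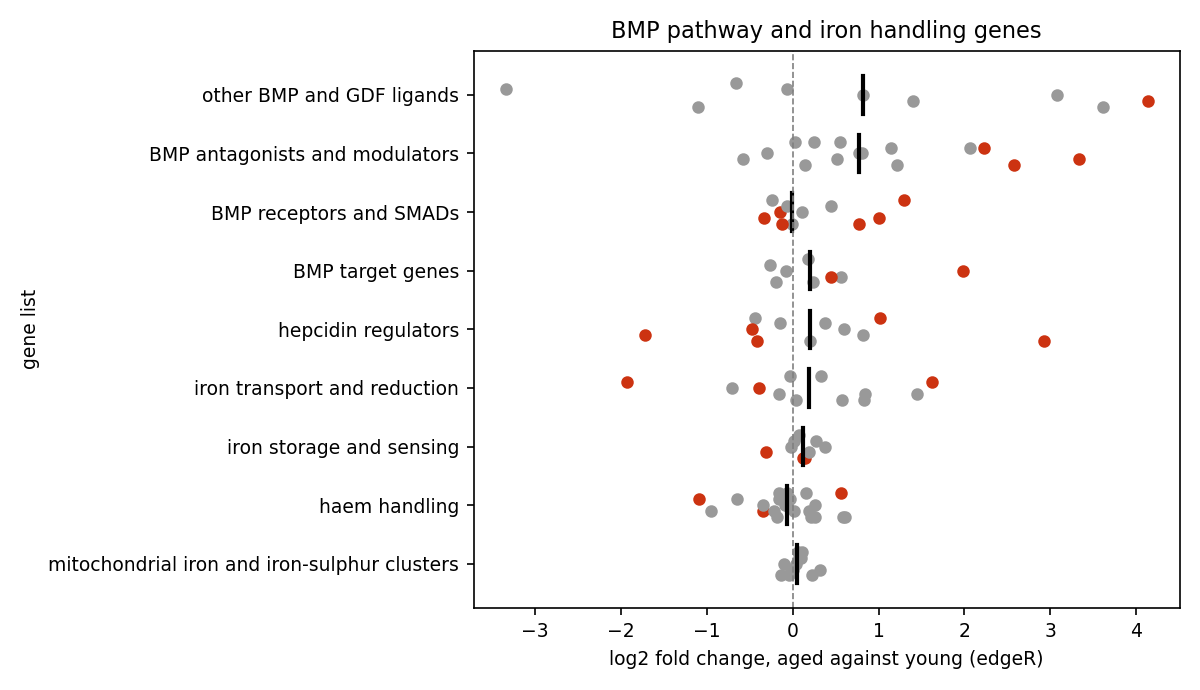
Log2 fold change (edgeR, aged against young) of each tested gene in 5 BMP and hepcidin lists and 4 iron lists, with a black bar at each list's median. Red points are genes whose aged and young CPM did not overlap, 17 of 54 in the BMP and hepcidin lists and 9 of 55 in the iron lists. Points are offset vertically only to be seen.

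The wider iron genes were described from 4 lists holding 60 genes, of which 55 were tested. None was called by edgeR, 4 had an unadjusted p below 0.05 and were higher, and 3 were lower, while DESeq2 called 2, close to the shares over all genes just given. The groups did not overlap in 9 of them (16.4%), near the 17.9% of all genes, and the median log2 fold change was 0.034. Mitochondrial iron genes stayed within a narrow range, with log2 fold changes of -0.14 to 0.31 over 12 genes, led by Lyrm4 (0.31), Abcb8 (0.22) and Iscu (0.093).

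Among iron transport genes, Cp, the ferroxidase ceruloplasmin that works with ferroportin, was 23.7, 28.7 and 15.4 FPKM in young and 79.3, 28.4 and 99.8 FPKM in the 127-, 131- and 136-week samples. Its log2 fold change was 1.62 (SE 0.45; edgeR adjusted p = 0.256). The 131-week sample lay within the young range in FPKM and just above it in CPM. Steap2, a metalloreductase, was 0.412 to 1.16 FPKM in young and at most 0.326 FPKM in aged ECs, a log2 fold change of -1.93 (edgeR adjusted p = 0.277). Lcn2, which binds bacterial siderophores, was 49.5 to 73.1 FPKM in young and 175, 46.2 and 246 FPKM in aged ECs, a log2 fold change of 1.45 (edgeR adjusted p = 0.350). Heph, of the same list, was 14.2 to 17.5 FPKM in young and 10.7 to 12.7 FPKM in aged ECs, without overlap. Its log2 fold change was -0.39 (edgeR adjusted p = 0.358), and it was named after its values were seen. The importer Slc11a2 and transferrin (Trf) overlapped, with log2 fold changes of 0.043 and 0.33.

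In storage and sensing, Ireb2, which encodes an iron regulatory protein, was 5.67 to 6.10 FPKM in young and 4.07 to 5.39 FPKM in aged ECs, a log2 fold change of -0.32 (edgeR adjusted p = 0.464). Hif1a and Fbxl5, which encodes the factor that degrades iron regulatory proteins, had 0.37 and 0.28 (edgeR adjusted p = 0.470 and 0.471). In haem handling, Bach1, a repressor of Hmox1, had 0.58, the transporter Abcb6 had 0.56 and the haem scavenger hemopexin (Hpx) had -0.96 (edgeR adjusted p = 0.353 to 0.371). Hmox1, which breaks down haem, was 58.6, 63.3 and 123 FPKM in young and 98.4, 149 and 122 FPKM in aged ECs, with overlap and a log2 fold change of 0.61 (edgeR adjusted p = 0.471).

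The genes most like 3 of the members over the 6 samples were named as a description, in log2(CPM + 0.5). Tbx2 and Rin2 were among those closest to Bmp2 (Pearson r of 0.997 and 0.994), and 162 genes had an r above 0.95 with it. Tbx2 was 67.7, 70.2 and 63.6 CPM in young and 30.2, 65.8 and 28.6 CPM in the 127-, 131- and 136-week samples. Hamp was followed by Ebf3, Pqlc3 and Kdm7a (0.998, 0.997 and 0.995), with 237 genes above 0.95. Bmp6 had 3 genes above 0.95, which were Eml2, Top3a and Fbxl15 (0.966, 0.961 and 0.954). With 6 points that share 2 age groups, r is set largely by which samples are high or low.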

How the data were processed

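RNA of CD31+CD45- liver cells in 3 young and 3 aged samples had been read as single-end 75-base reads. According to the submitters' processing notes, CASAVA 1.8.2, TopHat2 2.1.0, Cuffnorm 2.2.1 and the mm9 build were used. The authors deposited raw counts for 24421 gene symbols, and FPKM values for 24346 symbols scaled between samples. The counting program, annotation and use of strand are not given in the sources used here, so overlapping and antisense genes are uncertain. Haemoglobin genes are listed at 0 counts but have FPKM values. Total counts were 23001556 to 31651817 per sample, and floors of 3 counts cover counting error only, since reads carried no molecular identifiers.

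After removal of genes below 0.5 CPM in every sample, 14612 were scaled by TMM and tested with the quasi-likelihood test of edgeR 4.0.16 (R 4.3.3), aged against young, with Benjamini-Hochberg adjustment over all genes and a threshold of 0.05. P-values weigh the difference between groups against the spread between samples of a group. That spread may be in part technical. For ratios, exact permutation tests (two-sided, SciPy 1.17.1) were run on log2(CPM + 0.5) or log2(FPKM + 0.1). Alternatives were DESeq2 1.42.0, limma 3.58.1 (voom, or log2 FPKM with a pseudocount of 0.1 or 1), other filters and size factors, a term for the ribosomal share below or above 3%, removal of Lars2 and Rn45s, and leaving out each sample.

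The members, gene lists and tests were chosen with earlier results of these data known. Named genes are all members, from each list the 3 of smallest p, a few signalling and iron genes, 6 cell markers, and the 3 genes most correlated with Bmp2, Bmp6 and Hamp, of which 1 is not reported here. Marker lists covered endothelial, sinusoidal, hepatocyte, macrophage, leukocyte, stellate and other cells. T cell markers summed to 7.56 to 9.78 CPM in young and 9.69 to 29.8 CPM in aged ECs, B cell markers to 1.17 to 4.17 and 1.09 to 21.6, stellate and mural markers to 459 to 1002 and 682 to 1016, erythroid markers to 23.3 to 29.1 and 14.2 to 23.4, and cholangiocyte markers to 86.3 to 102 and 183 to 230. Gene positions and transcripts are those of GENCODE for mm9, and promoter windows are from RefSeq (GRCm38.p6). No label pairs young with aged samples, so none were paired.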

Additional observations from a re-analysis of the deposited data

How the results depend on the processing

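Of 135 member fold changes under 15 alternatives (9 genes), 127 kept their direction and side of the threshold, 1 passed it and 7 turned. Bmp6 turned to 0.035 with limma-voom, and lay between -0.42 and 0.27 when each sample was left out. Bmper lay between -0.23 and 0.070 and Ftl1 between -0.18 and 0.40 over the same removals, which turned each at least once. Fth1 relative to Tfrc lay between -1.21 and 0.023, turning without young replicate 2 (0.023). DESeq2 called 1 member (Hamp), 6 genes of the BMP and hepcidin lists (Gdf15, Gdf2, Inhba, Hey1, Il6 and Socs3) and 2 iron genes (Cp and Steap2). For each of these sets edgeR called 0, and an unadjusted p below 0.05 gave 3, 14 and 7. The number of members with groups that did not overlap was 3, and 3 to 5 when a sample was left out, most without young replicate 3, when Bmp4 and Tfrc joined. The share of all genes without overlap also went from 17.9% to between 23.2% and 34.5%, and was 33.0% without young replicate 3. The causes were not tested. Young and aged samples are separate groups that no label pairs, so no paired analysis was made. Hamp (4 to 18 counts in young ECs) and Hfe2 are limited by depth, and Ftl1 and Hamp2 by reads shared with copies.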
